A study of Homo sapiens and Mus musculus with 19 samples.

Results

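The 39 human and 39 mouse protein-coding HOX genes of the HOXA, HOXB, HOXC and HOXD clusters were followed in chromatin-associated RNA (caRNA), the RNA that stays with the chromatin pellet when nuclei are fractionated. Members were chosen by symbol (HOXA to HOXD followed by a paralogue number), which gave 11 HOXA, 10 HOXB, 9 HOXC and 9 HOXD genes per species, out of 58721 genes in the human tables and 54446 in the mouse tables. Of the 19 libraries in the series, 18 were used. Of these, 12 came from K562, a human erythroleukaemia line, in 4 groups of 3 libraries: TET2 WT or TET2 KO cells, each with a control hairpin (shControl) or a hairpin against MBD6 (shMBD6), delivered by lentivirus and kept under puromycin in all 4 groups. The other 6 came from mouse embryonic stem cells (mES cells) kept in LIF with 2 kinase inhibitors, of labelled wild-type genotype, transfected with siControl or siNsun2, with 3 libraries each. The TET2 KO line had been made before the study, and whether it is 1 clone is not given in the sources used here. TET2 oxidizes 5-methylcytosine in DNA and RNA, NSUN2 is an RNA 5-methylcytosine methyltransferase, and MBD6 is a methyl-binding-domain protein found with the PR-DUB complex, which removes ubiquitin from histone H2A, a Polycomb mark. The comparisons thus ask whether HOX caRNA levels differ with each of these 3 factors. In K562, genotype goes together with cell line, so loss of TET2 cannot be told apart from other differences between the lines. The study speaks of biological replicates for its genome-wide data, but the labels do not say whether the 3 libraries of a group came from separate cultures, and where they did not, p-values measure only a technical spread.

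HOX genes encode homeodomain transcription factors that give cells their position along the head-to-tail axis, and their order along each cluster matches the order in which they are switched on. In pluripotent cells the clusters are a textbook case of Polycomb silencing, and KMT2A (MLL) keeps them active once they are on. In blood, HOX genes are used by stem and progenitor cells and are often misused in leukaemia. HOX proteins bind DNA with partners of the TALE homeodomain class, the PBX, MEIS and PKNOX proteins.

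The targeted genes were read first. Nsun2 stood at 132.8, 125.9 and 129.7 CPM (counts scaled by TMM to a common library size) in the siControl libraries and at 98.8, 105.9 and 102.8 CPM with siNsun2, a log2 change of -0.34. MBD6 fell from 43.3, 42.7 and 38.6 CPM to 31.0, 25.7 and 27.2 CPM with shMBD6 in TET2 WT cells (log2 change -0.57). In TET2 KO cells the libraries labelled shMBD6 held MBD6 at 30.6, 38.3 and 34.2 CPM, beside 30.6, 30.8 and 29.4 CPM with shControl. That is a log2 difference of 0.19 (edgeR quasi-likelihood test with Benjamini-Hochberg adjustment, adjusted p = 0.0574). The gene count thus does not show an MBD6 knockdown in TET2 KO cells, and every direction given below for those 3 libraries rests on their label. The count is of chromatin-associated RNA, not of mature mRNA or protein, so it is a partial check. The paper reports that MBD6 knockdown slowed the growth of TET2 KO cells, with a rise in ubiquitin on histone H2A. TET2 itself was at 118.4 to 123.5 CPM in WT and at 126.9 to 131.3 CPM in KO cells under shControl, so counts over the whole gene do not check the KO label.

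The libraries held 52158403 to 102070223 gene counts in K562 and 58078323 to 66832780 in mES cells, and HOX genes together took 188 to 242 CPM of gene counts in K562 and 20.7 to 28.1 CPM in mES cells. In K562, the summed level of 10 erythroid markers, 2 of which (HBG2 and HBE1) were listed at 0 throughout, was 1050 to 1081 CPM in WT shControl, 632 to 648 in WT shMBD6, 515 to 526 in KO shControl and 747 to 767 in the KO libraries labelled shMBD6. The summed level of 8 markers of other blood lineages was 93.8 to 98.8, 72.1 to 80.1, 5.64 to 7.01 and 4.25 to 5.25 CPM in the same order. That sum was mostly PTPRC, at 94.6 CPM in WT shControl and 0.0927 CPM in KO shControl, while ITGAM went the other way, from 1.12 to 5.11 CPM (log2 2.19). In mES cells the pluripotency markers summed to 1743 to 1771 CPM with siControl and 1337 to 1372 CPM with siNsun2, feeder fibroblast markers to 63.9 to 65.3 and 57.4 to 58.4 CPM, and markers of differentiated embryonic cells to 21.4 to 22.8 and 16.8 to 17.7 CPM. Single members of the last 2 lists moved both ways: Pdgfrb (13.8 to 6.84 CPM) and Gata4 (12.9 to 6.98 CPM) fell, while Twist2 (log2 1.32), Fbn1 (0.32), Pax6 (0.87) and Gata6 (0.71) rose.

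Which HOX genes could be counted at all was set by how closely they lie together. A read that falls in 2 genes of the same strand is set aside as ambiguous, so a gene lying wholly inside another has no span of its own. All 12 human and all 8 mouse HOX genes without such a span (from the GENCODE v44 and vM21 annotations) had 0 counts in every library. In K562 these were HOXA4, HOXA5, HOXA6, HOXB4, HOXB5, HOXB8, HOXB9, HOXC5, HOXC6, HOXC8, HOXC9 and HOXD4. In mES cells they were Hoxa3, Hoxa4, Hoxa5, Hoxa6, Hoxc6, Hoxc8, Hoxc9 and Hoxd4. Another 2 human genes, HOXB6 with 0.08 kb and HOXA10 with 0.248 kb, fell under the minimum of 0.5 kb used here, which left 25 countable members in K562 and 31 in mES cells. A 0 for the others therefore says nothing about their expression. The same held across the tables, where 95.2% of all human and 99.8% of all mouse genes with no span of their own were at 0, against 15.5% and 7.54% of the rest.

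The HOXB cluster shows what this means for the strongest members. HOXB3 is annotated at chr17:48548870-48604912 (GRCh38, minus strand) and HOXB7 at chr17:48607232-48633572 (minus strand). HOXB4, HOXB5 and all but 0.08 kb of HOXB6 lie inside HOXB3, and HOXB8 and HOXB9 lie inside HOXB7. HOXB3 kept 38.9 of its 56.0 kb as countable span and HOXB7 17.2 of 26.3 kb, of which 1.52 kb is annotated exon of HOXB7. Counts assigned to HOXB3 and HOXB7 are thus reads from those stretches on that strand, and primary transcripts running through the neighbours would be counted there too. HOXB2, at chr17:48540894-48545109 (minus strand), overlaps no other gene of its strand.

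**Figure D1:**
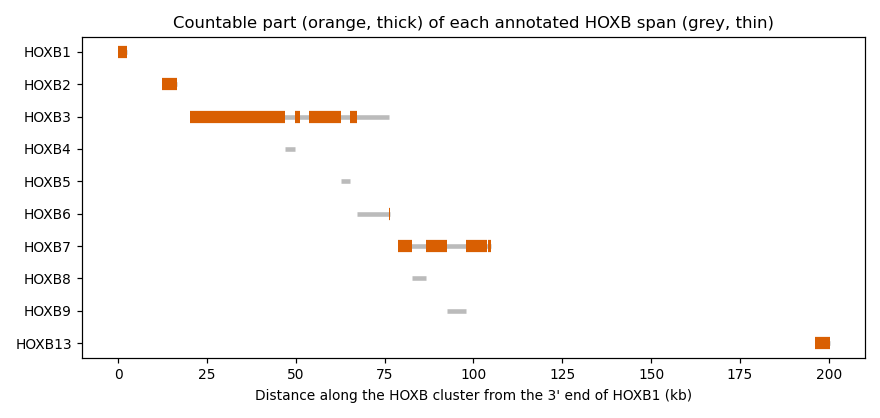
Annotated spans of the 10 human HOXB genes (thin grey) and the countable part of each (thick orange), against distance in kb along the cluster from the 3′ end of HOXB1. HOXB4, HOXB5, HOXB8 and HOXB9 have no countable part, and HOXB6 has 0.08 kb.

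Promoter sequences of the human members were read from RefSeq windows (GRCh38.p14), in which 20 of the 39 human HOX symbols have an entry. The 250 bases before 1 RefSeq start of HOXC4 and of HOXD3 are shown, since these are the central HOXC and the anterior HOXD gene whose caRNA counts differed between groups below. Capitals mark matches to the CCAAT box on either strand (CCAAT or ATTGG). The HOXC4 window, chr12:54016638-54016887 (plus strand), is also listed for HOXC5. The HOXD3 window is chr2:176157057-176157306 (plus strand). It lies inside the annotated HOXD3 span (chr2:176136612-176173102), so it precedes an internal start. HOXC4 kept 20.7 of 39.1 kb as countable span, in 1 stretch beyond HOXC6 and HOXC5. Transcripts running on from those genes would be counted there too, so the windows need not be the promoters of the counted RNA.
HOXC4: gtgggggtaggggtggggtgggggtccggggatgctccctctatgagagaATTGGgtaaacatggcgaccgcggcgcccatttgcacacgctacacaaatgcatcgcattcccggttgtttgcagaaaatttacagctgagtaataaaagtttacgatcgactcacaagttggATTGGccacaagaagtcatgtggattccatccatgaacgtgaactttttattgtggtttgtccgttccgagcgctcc
HOXD3: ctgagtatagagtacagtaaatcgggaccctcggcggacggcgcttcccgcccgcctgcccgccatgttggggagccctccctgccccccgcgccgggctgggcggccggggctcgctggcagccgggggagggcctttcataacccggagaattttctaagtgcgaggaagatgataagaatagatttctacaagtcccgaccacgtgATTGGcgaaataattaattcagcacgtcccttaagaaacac
The HOXC4 window holds 2 such matches and 14 CpG dinucleotides, and the HOXD3 window 1 match and 21 CpGs, beside a median of 11 CpGs over all 34943 windows of this length. A CCAAT box match occurred in 32.0% of all windows. Neither window holds a match on either strand to the HOX-PBX composite core (TGATNNAT, in 6.49% of windows), to the MEIS and PKNOX core (TGACAG, in 13.1%) or to the TATA box (TATAAA, in 10.8%). HOXB2, HOXB3, HOXB7 and HOXC12 are not in the table.

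Because many HOX genes gave few reads, each was set against olfactory receptor genes, taken as a background. In K562 most of these were at or near 0, but 18 of the 355 held 93.4% of their counts. Their 99th percentile there was 1.18 to 2.51 per kb, so not all of them are background. A K562 library size from all olfactory receptor counts thus rests mostly on those 18 genes. In mES cells 54 of 1076 held 20.6%. The level of a gene was its count per kb of countable span, scaled to CPM of all read records, and a member was called above background when its level passed the 95th percentile of olfactory receptor genes in all 3 libraries of at least 1 group. In K562 that percentile was 0.0422 to 0.0539 in WT shControl, 0.0695 to 0.111 in WT shMBD6, 0.0474 to 0.0503 in KO shControl and 0.0314 to 0.0464 in the KO libraries labelled shMBD6, so the yardstick itself was highest in WT shMBD6. In K562, 5 of 25 countable members passed, HOXB2, HOXB3, HOXB7, HOXC4 and HOXC12, where 59.2% of protein-coding genes did. No countable HOXA and no countable HOXD gene was above background, and HOXB genes held 95.5 to 98.6% of all HOX counts in every K562 library. In mES cells 12 of 31 countable members passed, where 59.5% of protein-coding genes did. Among them were Hoxa7, Hoxb9, Hoxb13, Hoxd8, Hoxd11 and all 6 countable Hoxc genes (Hoxc4, Hoxc5, Hoxc10, Hoxc11, Hoxc12 and Hoxc13). HOXC genes held 42.2 to 59.9% of HOX counts there.

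**Figure D2:**
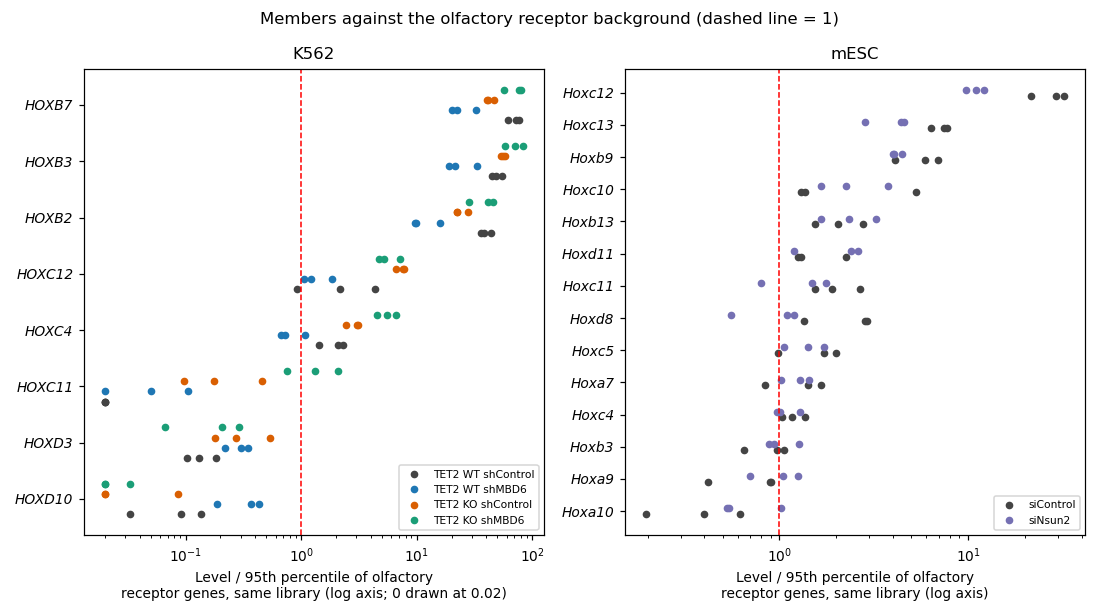
Level of each named member divided by the 95th percentile of olfactory receptor genes in the same library (log axis, dashed line at 1), for the 12 K562 libraries (left) and the 6 mES cell libraries (right). HOXB2, HOXB3 and HOXB7 lie at 9.62 to 83.2 times the percentile, HOXD3 at 0.0658 to 0.541 times, and mouse Hoxc12 at 9.76 to 32.4 times.

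By level, HOXB7, HOXB3 and HOXB2 led in K562. HOXB7 ran from 3.21 to 3.45 per kb in WT shControl and from 1.94 to 2.21 in KO shControl. HOXB3 ran from 2.31 to 2.42 in WT shControl and from 2.66 to 2.74 in KO shControl. The order of these neighbours was therefore not fixed: HOXB7 was above HOXB3 in every WT shControl library and below it in every KO shControl library. HOXB2 came next in all 12 libraries, at 1.05 to 1.94 per kb. HOXC4 (0.0734 to 0.249 per kb) and HOXC12 (0.0496 to 0.391 per kb) were lower still and overlapped each other in range.

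The first K562 comparison was TET2 KO over WT under shControl. Of 11 members with enough counts to be tested, 7 were called at an adjusted p under 0.05, 5 higher and 2 lower, where 45.8% of all 26023 genes tested were called, 23.5% higher and 22.3% lower. Among them HOXC11, HOXC12 and HOXD3 differed by at least 2-fold, as 17.7% of all genes did. The libraries are of bulk cells, so fewer cells using a gene and less RNA per cell cannot be told apart here or below. The median log2 change was 0.58 over the 11 members and -0.05 over all genes.

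The 3 HOXB genes above background moved in different directions. HOXB3, an anterior gene used in blood progenitors, stood at 129.5, 122.7 and 123.3 CPM in WT and at 168.2, 166.2 and 164.5 CPM in KO. All 3 KO libraries lay above all 3 WT libraries, and HOXB3 rose by a log2 change of 0.41 ± 0.0363 (SE, adjusted p = 1.76e-11), which turned to -0.38 when olfactory receptor counts were used as library size. HOXB7, a central gene of the trunk, was at 78.8, 75.3 and 81.1 CPM in WT and at 59.8, 56.5 and 52.9 CPM in KO. It fell by 0.47 ± 0.055 on the log2 scale (adjusted p = 7.72e-09), with no overlap between the groups. HOXB2, an anterior gene that patterns the hindbrain, was at 11.3, 10.6 and 10.6 CPM in WT and at 7.06, 7.56 and 8.92 CPM in KO. It too fell, by 0.46 ± 0.127 (adjusted p = 0.00294), and its groups did not overlap. The HOXB7 and HOXB2 calls were lost, with values of -0.22 and -0.22, when the library size was the olfactory receptor count without its top 5% of genes. These 2 sizes pull in opposite directions. In KO over WT the sum of all olfactory receptor genes differed by 0.79 (log2), and that without the top 5% by -0.26. HOXB2, HOXB3, HOXB7 and, below, HOXC4 are each given under the size that weakened them. HOXC12 and HOXD3 below are given under neither size. The median over all genes in KO over WT moved from -0.05 to -0.85 with all olfactory receptor counts as library size. All 8 erythroid markers tested were lower in KO as well, and the part of that in these results was not tested.

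Ratios within a library need no library size. HOXB7 counts were 60.8 to 65.8% of HOXB3 counts in the WT shControl libraries and 32.2 to 35.6% in KO shControl. HOXB2 counts were 8.58 to 8.72% and 4.20 to 5.42% of HOXB3 counts in the same groups. The 3 HOXB genes thus did not keep their proportions to each other. The summed HOXB level was 214 ± 5.58 CPM (SD, n = 3) in WT and 231 ± 4.46 in KO (two-sided exact permutation test, p = 0.1, the smallest that 3 against 3 libraries allow, and 0.2 after adjustment over 16 such K562 comparisons).

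Of the 4 HOXC members tested, HOXC4, HOXC11 and HOXC12 were called higher in KO, and HOXC13 was not called (log2 0.34, adjusted p = 0.806). HOXC4, a central gene active in lymphoid cells, was at 2.19, 2.49 and 3.08 CPM in WT and at 4.82, 4.01 and 4.82 CPM in KO, a rise of 0.81 ± 0.197 (log2, adjusted p = 0.000876) that shrank to 0.02 and lost its call with olfactory receptor counts as library size. HOXC12, a posterior gene at chr12:53954903-53958956 (plus strand), was at 0.277, 1.02 and 0.577 CPM in WT and at 2.32, 2.51 and 2.06 CPM in KO. It rose by 1.86 ± 0.401 (adjusted p = 0.000237), and every KO library was above every WT library. HOXC11, at chr12:53973126-53977643 (plus strand), had 0 counts in all 3 WT libraries and 5, 2 and 12 in KO. Against a floor of 3 counts over the WT group it was at least 8.07-fold higher, yet it passed the filter on low counts only through the KO libraries labelled shMBD6, and every one of these values was under the olfactory receptor percentile. Summed over the cluster, HOXC was at 3.42 ± 0.777 CPM in WT and 7.23 ± 0.273 in KO (exact permutation p = 0.1, 0.2 adjusted).

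HOXD3, an anterior gene at chr2:176136612-176173102 (plus strand), was the one HOXD member called. It was at 0.263, 0.259 and 0.418 CPM in WT and at 1.41, 0.749 and 0.474 CPM in KO, a log2 change of 1.48 ± 0.519 (adjusted p = 0.0192). The call was lost without KO replicate 1 and without WT replicate 1 or 2 (log2 change from 0.95 to 1.78 over all leave-one-out fits), and HOXD3 stayed under the olfactory receptor percentile in all 12 libraries. No HOXA member was called; HOXA3, the one HOXA gene tested, had at most 45 counts in any library.

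**Figure D3:**
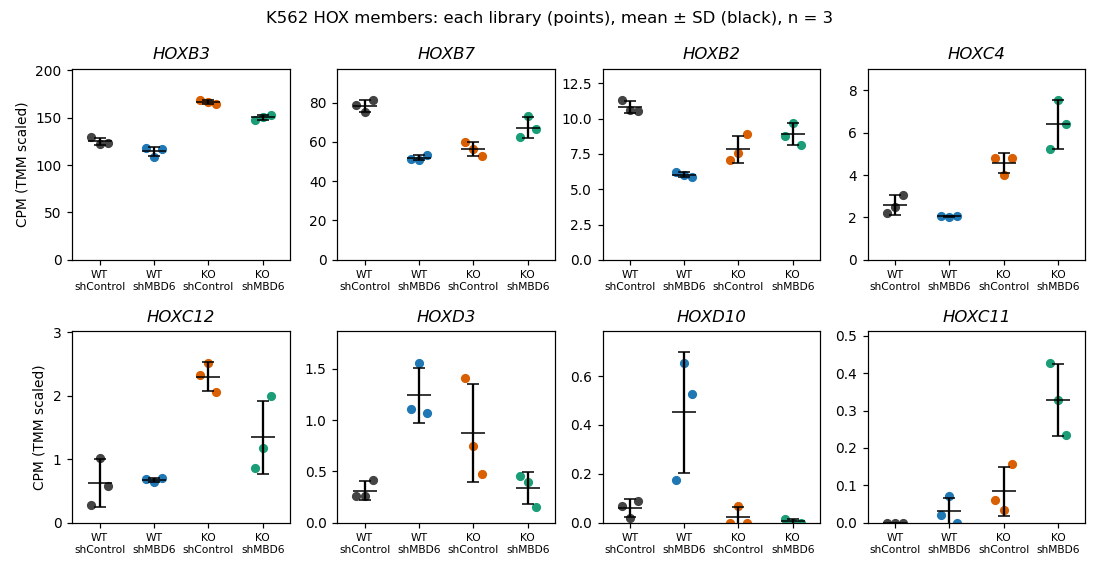
CPM (TMM scaled, axes from 0) of the 8 named K562 members in each of the 12 libraries (points), with the mean ± SD of 3 libraries (black). HOXB3 is highest in the KO groups, HOXB7 and HOXB2 are highest in WT shControl, and HOXD3 is between 0.156 and 1.55 CPM throughout.

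The second comparison was shMBD6 over shControl in TET2 WT cells, where 4 of 11 members were called, 1 higher and 3 lower, against 42.5% of all genes (17.7% higher and 24.7% lower). By at least 2-fold it was HOXD3 alone, beside 10.9% of all genes. The median log2 change was 0.56 over the 11 members and 0.10 over all genes. HOXB2 fell by more than HOXB7 and HOXB3, from 11.3, 10.6 and 10.6 CPM to 6.2, 6.0 and 5.87 CPM, by 0.85 ± 0.128 on the log2 scale (adjusted p = 1.56e-06). HOXB7 fell to 51.4, 51.0 and 53.6 CPM, by 0.59 ± 0.0552 (adjusted p = 1.02e-10). Neither gene's groups overlapped, and both ratios to HOXB3 were lower too, at 43.6 to 47.0% for HOXB7 and 5.03 to 5.52% for HOXB2. HOXB3 was at 118.0, 108.5 and 116.8 CPM, a log2 change of -0.13 ± 0.0365 (adjusted p = 0.00451) that lost its call under 5 other settings and without WT shMBD6 replicate 2, and turned to 0.10 when scaling used genes well above background. Of the 8 erythroid markers tested, 6 were called lower with shMBD6 and 0 higher, with LMO2 at a log2 change of -1.41, KLF1 at -0.93 and TFRC at -0.70, in the direction of HOXB2 and HOXB7. Reads in no gene were 13.1 to 13.3% of records with shControl and at least 15.6% with shMBD6, and the part of either in these results was not tested. HOXD3 was the member that rose, to 1.11, 1.55 and 1.07 CPM, by 1.98 ± 0.522 (adjusted p = 0.00231). The size of this rise depends on the scaling too. With the olfactory receptor count without its top 5% of genes as library size, the median over all genes was -1.05. It was 0.10 in the main fit.

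The background level was also higher in WT shMBD6. The olfactory receptor genes outside the top 5% summed to 10.8 ± 1.09 CPM in WT shControl and 23.8 ± 2.17 CPM in WT shMBD6, a log2 difference of 1.15, and HOXD3 was at 0.220 to 0.348 times their 95th percentile in WT shMBD6. HOXD10, a posterior gene at chr2:176108790-176119937 (plus strand), had 5, 2 and 9 counts in WT shControl and 17, 37 and 37 in WT shMBD6. HOXD8 had 1, 0 and 16 counts and then 19, 22 and 27. Neither was called, and HOXD10 passed the filter on low counts only through WT shMBD6, so nothing is read from its test. The HOXD sum was 0.482 ± 0.204 CPM with shControl and 2.31 ± 0.789 with shMBD6 (exact permutation p = 0.1, 0.2 adjusted). The part of the background level in these HOXD values was not tested.

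The third comparison set the TET2 KO libraries labelled shMBD6 against KO shControl. Of 11 members, 4 were called, 2 higher and 2 lower, against 36.4% of all genes (15.7% higher and 20.6% lower). HOXD3 was the member called at 2-fold or more, beside 9.05% of all genes. The medians were -0.14 over the members and -0.07 over all genes. HOXB7 rose from 59.8, 56.5 and 52.9 CPM to 62.3, 73.2 and 66.5 CPM, by 0.25 ± 0.0553 (log2, adjusted p = 0.000353). HOXB2 was at 8.77, 9.72 and 8.17 CPM, a log2 difference of 0.18 from KO shControl (adjusted p = 0.298), and the groups overlapped. All 8 erythroid markers tested were higher in the libraries labelled shMBD6, in the direction of HOXB7, and their part was not tested. HOXB3 was at 147.6, 150.9 and 153.0 CPM, a fall of 0.14 ± 0.0363 (adjusted p = 0.00181) that turned to 0.37 or 0.34 when the library size was the olfactory receptor count with or without its top 5% of genes.

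HOXC4 was at 5.24, 7.53 and 6.43 CPM in those libraries, all above the 4.01 to 4.82 CPM of KO shControl. Its log2 change of 0.49 ± 0.193 had an adjusted p of 0.0458, which became 0.0546 with the replicate number as a block, and the call was lost without any 1 of KO shControl replicates 1 to 3 or shMBD6 replicates 2 and 3 (log2 from 0.36 to 0.61). HOXC12 was at 0.868, 1.17 and 1.99 CPM against 2.06 to 2.51 CPM, a log2 difference of -0.77 (adjusted p = 0.124). HOXD3 fell to 0.457, 0.399 and 0.156 CPM (log2 change -1.38 ± 0.522, adjusted p = 0.0365), a call lost without KO shControl replicate 1 (log2 -0.86) or 2 and without KO shMBD6 replicate 3. The same background sum was lower too, at 9.02 ± 0.777 CPM in KO shControl and 6.53 ± 0.921 in the libraries labelled shMBD6.

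Between genotypes under shMBD6, 8 of 11 members were called, 6 higher and 2 lower in KO, against 58.6% of all genes (30.1% higher and 28.5% lower). At 2-fold or more there were 4, HOXC4, HOXC11, HOXD3 and HOXD10, beside 26.9% of all genes. HOXC11 and HOXD10 are in both counts, but each passed the filter on low counts only through the group of this comparison in which it was high, so they had to differ, and their counts are given as a description. HOXB2 (log2 0.56), HOXB3 (0.39), HOXB7 (0.37) and HOXC4 (1.64 ± 0.201, adjusted p = 2.22e-08) were higher in the KO libraries. HOXC12 (0.99, adjusted p = 0.0344) was higher as well, a call lost without KO shMBD6 replicate 3 (log2 0.59) or any WT shMBD6 replicate. HOXC11 had 2, 4 and 0 counts in the WT and 28, 23 and 18 in the KO libraries. HOXD3 was lower (log2 change -1.88 ± 0.525, adjusted p = 0.00281). That value depends on the scaling. In this comparison the median over all tested genes was -0.03 in the main fit. It was 1.85 when the library size was the olfactory receptor count without its top 5% of genes. That shift is close in size to the whole HOXD3 difference and opposite in sign. HOXD10 had 91 counts over the 3 WT shMBD6 libraries and 1 over the 3 KO ones. The background sum was 23.8 CPM in the WT and 6.53 CPM in the KO libraries, in the direction of both HOXD genes, and its part was not tested.

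**Figure D4:**
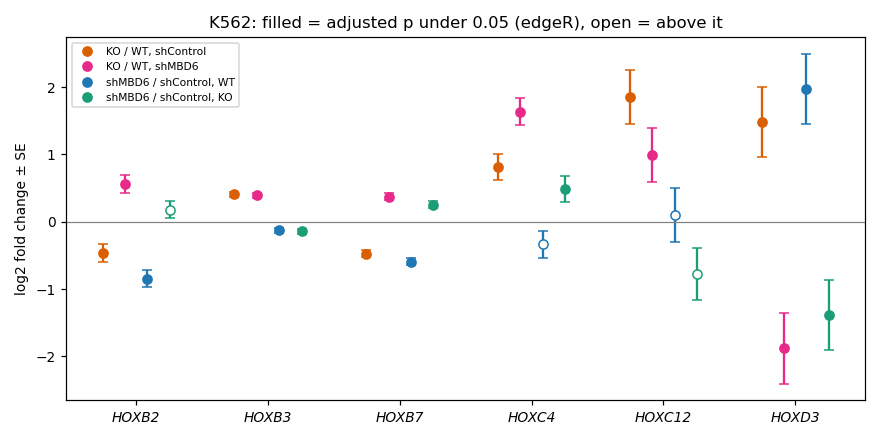
Log2 fold change ± SE (edgeR, n = 3 libraries per group) of 6 K562 members in the 4 pairwise comparisons, filled where the adjusted p is under 0.05. HOXB2 and HOXB7 are lower with shMBD6 in WT (-0.85 and -0.59) and not in KO (0.18 and 0.25), while HOXB3 differs little with the hairpin (-0.13, which is 0.10 under scaling on genes well above background, and -0.14, which is 0.37 with olfactory receptor counts as library size).

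Whether the hairpin's effect differed between genotypes was tested directly, as the shMBD6 effect in KO minus that in WT. Of 11 members, 4 were called, 3 higher and 1 lower, against 49.4% of all genes (23.9% higher and 25.5% lower), and 2 of them, HOXB2 and HOXD3, by at least 2-fold, beside 24.2% of all genes. The difference was 1.02 ± 0.181 for HOXB2 (log2, adjusted p = 1.42e-05), 0.85 ± 0.0781 for HOXB7 (adjusted p = 4.98e-11), 0.82 ± 0.279 for HOXC4 (adjusted p = 0.0143, lost without KO shMBD6 replicate 2 or WT shControl replicate 3) and -3.36 ± 0.738 for HOXD3 (adjusted p = 0.000273). HOXB3 gave -0.02 ± 0.0515 (adjusted p = 0.83), which turned to 0.90 or 1.62 when the library size was the olfactory receptor count with or without its top 5% of genes and to 0.01 with total gene counts. The 8 erythroid markers tested all had a positive difference as well, and their part was not tested. Of 61 olfactory receptor genes tested, 0 were called higher and 13 lower, with a median difference of -1.26, in the direction of HOXD3, and their part in its value was not tested either. The median difference over all genes was -0.19 in the main fit. It was 1.43 with the olfactory receptor count without its top 5% of genes as library size, a shift opposite to the HOXD3 value. MBD6 counts themselves moved differently in the 2 genotypes, as given above. The 5 K562 comparisons share libraries, so their member values are set side by side and not counted as separate evidence.

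The remaining countable K562 members were near or at 0, and those without enough countable span are not read here. Outside the named genes, no countable HOXA gene passed 45 counts, no countable HOXB gene 28 and no countable HOXC gene 55 in any library. HOXA9 was countable over 8.6% of its span only. Among the tested ones HOXC13 (posterior), HOXD8 (central) and HOXA3 (anterior) were called in no comparison. HOXC13 had 0 to 55 counts per library and passed the olfactory receptor percentile in 1 of 12 libraries.

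In mES cells the comparison was siNsun2 over siControl. Of 19 members tested, 5 were called, 3 higher and 2 lower, where 50.2% of 27603 genes were called, 25.8% higher and 24.3% lower. Hoxa10 alone passed 2-fold, beside 8.38% of all genes. The median log2 change was 0.40 over the 19 members and 0.14 over all genes. Here the background moved as well: olfactory receptor genes summed to 225 ± 13.1 CPM with siControl and 334 ± 14.7 CPM with siNsun2, their 95th percentile went from 0.0496 to 0.0538 per kb to 0.0702 to 0.0748 per kb, and reads in no gene went from 19.6 to 20.2% of records to 28.9 to 29.9%. Of 580 olfactory receptor genes tested, 104 rose and 3 fell, and the part of this in the member values was not tested.

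The members that fell were the posterior end of the Hoxc cluster, genes known for hair and nail. Hoxc12, at chr15:102936757-102938609 (GRCm38, plus strand), was the member with the highest level, 1.14 to 1.61 per kb with siControl and 0.687 to 0.855 with siNsun2. It was at 4.34, 4.28 and 3.11 CPM with siControl and at 2.34, 2.26 and 1.88 CPM with siNsun2. The groups did not overlap, and Hoxc12 fell by 0.86 ± 0.175 on the log2 scale (adjusted p = 2.43e-05), a call that held under all alternatives run, with values from -1.53 to -0.66. Its neighbour Hoxc13, at chr15:102921103-102928814 (plus strand), was at 4.34, 3.87 and 4.46 CPM and then at 3.68, 3.77 and 2.29 CPM. That fall of 0.38 ± 0.161 (adjusted p = 0.0429) lost its call without siNsun2 replicate 3 (log2 -0.19), without siControl replicate 1 or 3, and under 3 other settings. The level of Hoxc13 was 0.343 to 0.393 per kb with siControl.

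The members that rose lay near the background level. Hoxb3, an anterior gene at chr11:96323326-96347930 (plus strand), was at 1.88, 1.26 and 1.87 CPM with siControl and at 2.26, 3.47 and 2.39 CPM with siNsun2 (log2 change 0.69 ± 0.208, adjusted p = 0.00372). Hoxa9, a posterior gene of blood stem cells at chr6:52223100-52231089 (minus strand), went from 0.239, 0.556 and 0.557 CPM to 1.04, 0.915 and 0.572 CPM (0.90 ± 0.379, adjusted p = 0.0413). Hoxa10, its posterior neighbour at chr6:52231197-52240854 (minus strand), went from 0.431, 0.303 and 0.147 CPM to 0.542, 0.562 and 1.02 CPM (1.26 ± 0.441, adjusted p = 0.0133). The lowest siNsun2 and the highest siControl libraries of these 3 genes were close. None was above the olfactory receptor percentile in all libraries of a group: Hoxb3 was at 0.653 to 1.28 times it, Hoxa9 at 0.419 to 1.26 times and Hoxa10 at 0.196 to 1.02 times. With olfactory receptor counts as library size their log2 changes were 0.11, 0.34 and 0.69, and all 3 calls were lost. Leaving out 1 library also ended the call of Hoxa9 (without siControl replicate 1, or siNsun2 replicate 1 or 2), of Hoxa10 (without siControl replicate 3 or siNsun2 replicate 3) and of Hoxb3 (without siNsun2 replicate 2, log2 0.48).

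**Figure D5:**
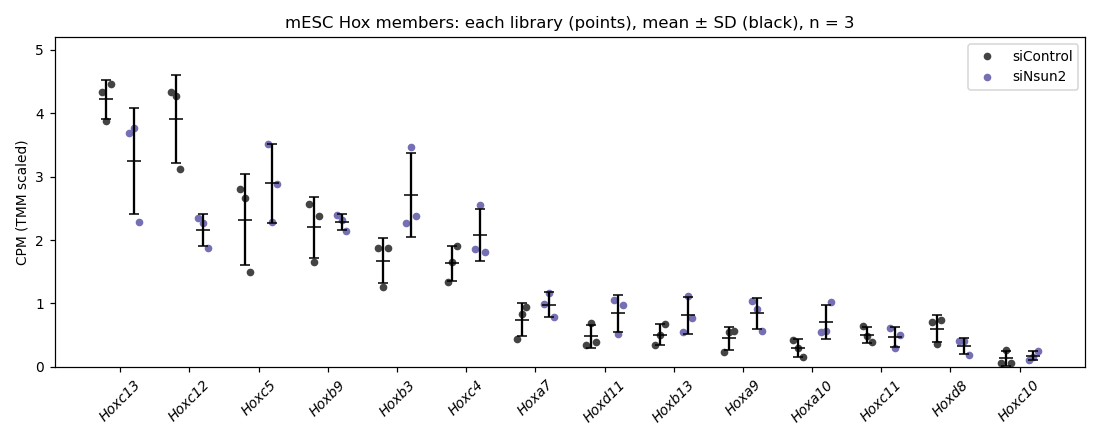
CPM (TMM scaled, axis from 0) of 14 mES cell members in each of the 6 libraries (points), with the mean ± SD of 3 libraries (black). Hoxc12 and Hoxc13 are the highest with siControl, and Hoxc12 lies at 1.88 to 2.34 CPM with siNsun2 against 3.11 to 4.34 CPM.

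The other 10 members above background were not called. Hoxb9, a posterior gene of the thoracic region, was the steadiest, at 2.57, 1.65 and 2.38 CPM with siControl and 2.39, 2.31 and 2.15 CPM with siNsun2 (log2 0.05 ± 0.2). The next pair are the central Hoxc genes that border each other. Hoxc5, which overlaps Hoxc6, Hoxc8, Hoxc9 and Hoxc10 and kept 19.6 of 50.0 kb, was at 2.81, 2.66 and 1.49 CPM and then 3.52, 2.28 and 2.88 CPM. Hoxc4 was at 1.34, 1.65 and 1.90 CPM and then 1.86, 2.55 and 1.81 CPM. Their groups overlapped, at log2 differences of 0.32 ± 0.195 and 0.35 ± 0.219.

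Of the posterior members in this set, Hoxc11 was at 0.638, 0.489 and 0.393 CPM with siControl and at 0.606, 0.289 and 0.509 CPM with siNsun2. Hoxc10, countable over 0.647 kb only, had 4, 16 and 4 counts and then 7, 10 and 16. Hoxb13, the gene at the end of the Hoxb cluster, was at 0.351, 0.505 and 0.672 CPM and then 0.542, 1.12 and 0.763 CPM. All 3 overlapped between groups and had adjusted p values of 0.844, 0.679 and 0.127. Hoxd11, a limb gene, was at 0.351, 0.691 and 0.393 CPM with siControl and 1.05, 0.514 and 0.97 CPM with siNsun2 (log2 0.82 ± 0.374, adjusted p = 0.0592). Its groups overlapped through siControl replicate 2 and siNsun2 replicate 2.

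Hoxa7, a central gene, was at 0.447, 0.825 and 0.95 CPM and then 0.988, 1.17 and 0.779 CPM (adjusted p = 0.3). Hoxd8 was at 0.702, 0.354 and 0.737 CPM and then 0.414, 0.401 and 0.191 CPM (log2 difference -0.83 ± 0.45, adjusted p = 0.116). Both genes overlapped between the groups. The other countable mouse members had at most 79 counts in a library (Hoxb6), and of these Hoxa13, Hoxb2, Hoxb6 and Hoxb7 were tested and not called.

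By cluster, the mouse sums were 2.36 ± 0.231 CPM with siControl and 3.56 ± 0.365 with siNsun2 for HOXA, 5.98 ± 1.11 and 8.30 ± 0.887 for HOXB, 12.7 ± 1.14 and 11.02 ± 1.28 for HOXC, and 1.52 ± 0.0525 and 1.78 ± 0.165 for HOXD. Two-sided exact permutation tests gave p = 0.1 for HOXA, HOXB and HOXD and 0.2 for HOXC, where 0.1 is the smallest value possible, so no cluster could pass 0.05 (0.133 for HOXA, HOXB and HOXD after adjustment over the 4). With olfactory receptor counts as library size the HOXB and HOXD differences turned to -0.10 and -0.35 on the log2 scale.

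Genes that work with the HOX proteins were read from lists of named genes. The share of all genes called, against which each list is set, was 25.8% higher and 24.3% lower in mES cells. In K562 it was 23.5% and 22.3% in KO over WT under shControl, 17.7% and 24.7% for shMBD6 in WT, 15.7% and 20.6% in KO, and 30.1% and 28.5% between genotypes under shMBD6. No list was tested against these shares. List counts are from the main fit alone, and the shares depend on the scaling. With TMM over genes well above background, 10639 of 27603 genes were called higher with siNsun2 and 2256 lower. The main fit called 7128 higher and 6716 lower. The part of scaling in the list counts was not tested.

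Among 9 TALE cofactor genes in mES cells, 1 rose and 5 fell, with a median log2 change of -0.13 where that of all genes was 0.14. Pbx3 was at 202 ± 4.71 CPM (SD, n = 3) with siControl and 166 ± 6.89 with siNsun2. Pknox2 was at 67.2 ± 2.61 and 55.0 ± 1.9 CPM (log2 -0.29). Meis2 was the one that rose, from 77.1 ± 1.08 to 82.6 ± 1.0 CPM. In K562 all 9 were tested, with 5 higher and 3 lower in KO over WT under shControl, 5 and 2 for shMBD6 in WT, 0 and 5 for the libraries labelled shMBD6 in KO, and 2 and 5 for KO over WT under shMBD6. MEIS2 was at 277 ± 8.14 CPM in WT shControl and 409.8 ± 1.48 in KO shControl (log2 0.56), while MEIS1, a partner of HOXA9 in leukaemia, was at 86.9 ± 0.446 and 51.2 ± 2.59 CPM (log2 -0.76). PBX3 was at 17.7 ± 1.51 CPM in WT shControl, 31.9 ± 1.95 in WT shMBD6, 31.4 ± 3.42 in KO shControl and 14.6 ± 2.72 in the KO libraries labelled shMBD6.

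Among 20 MLL and trithorax genes, which keep HOX genes active, 0 rose and 16 fell with siNsun2, beside 24.3% of all genes lower. Their median log2 change was -0.13, where that of all genes was 0.14. The median of all genes was 0.33 with TMM over genes well above background. Mllt10, a partner of DOT1L, was at 867 ± 18.1 and 736 ± 13.8 CPM, and Aff1, of the elongation complexes, at 636 ± 11.3 and 493 ± 12.1 CPM. In K562 they split 6 higher and 7 lower in KO over WT under shControl, 2 and 12 with shMBD6 in WT, 9 and 7 in KO, and 13 and 4 between genotypes under shMBD6. AFF1 was at 681 ± 7.2 CPM in WT shControl, 479 ± 5.7 in WT shMBD6, 469 ± 1.55 in KO shControl and 508 ± 5.82 in the KO libraries labelled shMBD6. KMT2A itself, named for its role after its values were seen, was at 216 ± 4.92, 131 ± 1.06, 174 ± 1.08 and 221 ± 5.15 CPM in the same order.

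Of the 6 ParaHox and CDX genes, relatives of the HOX clusters, Cdx1, which activates Hox genes in the early embryo, fell in mES cells from 27.4 ± 0.949 to 12.7 ± 0.437 CPM (log2 change -1.11). The other 5 had group means of at most 0.447 CPM. In K562, 1 of the 6, CDX1, was tested, at 0.482 ± 0.144 CPM in WT shMBD6 and with 0 counts in every KO library labelled shMBD6. It passed the filter on low counts only through WT shMBD6, so its test is not read.

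Noncoding RNA genes inside the clusters were counted apart. In mES cells 10 of 11 listed genes were matched, Hotairm2 being the one that was not, and 5 of the 10 rose with siNsun2 and none fell, beside 25.8% and 24.3% of all genes. Hoxaas3 went from 1.24 ± 0.276 to 2.52 ± 0.539 CPM (log2 1.02), Haglr from 0.630 ± 0.131 to 1.11 ± 0.312 CPM (log2 0.81) and Hoxb5os from 0.444 ± 0.0683 to 1.27 ± 0.161 CPM (log2 1.51). These low levels were not set against the olfactory receptor percentile. The sum of olfactory receptor genes rose too, by 0.57 (log2), and its part was not tested. Several of the noncoding genes lie opposite to Hox genes, and the strand setting of the counting was not stated. Genes lying inside a gene of the other strand were at 0 in 7.01% of cases in mouse and 21.9% in human. In K562, 12 of 18 were tested, of which 0 were higher and 1 lower in KO over WT under shControl, 1 and 0 for shMBD6 in WT, 2 and 1 in KO, and 1 and 3 between genotypes under shMBD6, beside the shares of all genes above. HOXB-AS1 was at 12.1 ± 0.437 CPM in WT shControl, 10.5 ± 1.19 in WT shMBD6, 10.5 ± 1.32 in KO shControl and 13.8 ± 0.692 in the KO libraries labelled shMBD6, where it rose over KO shControl (log2 0.39). HOXB-AS3 rose there too, from 3.75 ± 0.642 to 5.32 ± 1.01 CPM (log2 0.51). HOXD-AS2, which lies in the HOXD cluster, was at 0.224 ± 0.161, 1.03 ± 0.269, 0.556 ± 0.2 and 0.0173 ± 0.03 CPM in the same order. It was called as higher with shMBD6 in WT and lower in KO. The olfactory receptor sum without its top 5% of genes moved in the same directions (log2 1.15 and -0.47). Its part was not tested.

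Genes just outside the clusters give a local yardstick. Of 19 such neighbours in mES cells, 3 rose and 10 fell, beside 25.8% and 24.3% of all genes, with a median log2 change of -0.19. Skap2, next to the HOXA cluster, was at 394 ± 9.17 and 319.6 ± 5.99 CPM (log2 -0.30), and Atf2, beyond the HOXD cluster, at 224 ± 6.18 and 176 ± 3.87 CPM (log2 -0.34). In K562, 17 were tested and split 10 higher and 1 lower in KO over WT under shControl, 4 and 7 with shMBD6 in WT, 0 and 6 in KO, and 7 and 6 between genotypes under shMBD6. MTX2, beyond the HOXD cluster, was at 203 ± 5.2 CPM in WT shControl, 183 ± 4.7 in WT shMBD6, 243 ± 5.22 in KO shControl and 190.1 ± 0.591 in the KO libraries labelled shMBD6. Its log2 change with shMBD6 in WT was -0.15.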

How the data were processed

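Chromatin-associated RNA libraries (a stranded total RNA kit) were sequenced by the authors, who trimmed reads with Trimmomatic 0.39, aligned them to hg38 or mm10 with HISAT2 2.2.1 and counted them per gene with HTSeq 0.12.4. The deposited values are raw counts per gene, 1 table per library. Neither the strand setting nor the feature type is stated, and spike-in RNA was not used here. The members, lists and tests were chosen with earlier results of these data known. Human gene positions come from GENCODE v44 and mouse ones from vM21, which matched 99.1% and 99.9% of gene identifiers. The authors counted on older GENCODE releases, so countable spans are approximate: of the human identifiers, 58.9% have the same version in both. Counts were tested in R 4.3.3 with edgeR 4.0.16 (quasi-likelihood, TMM, filterByExpr with a minimum count of 10, Benjamini-Hochberg over all genes, two-sided), by group, over all 12 K562 or 6 mES cell libraries. DESeq2 1.42.0, other library sizes, filters, a replicate block and leaving out each library were the alternatives. The scripts were tested on simulated data. Named members were those above the olfactory receptor background, or called with at least 10 counts in every library of 1 group. Same-numbered libraries of WT shControl and WT shMBD6 had correlated deviations from their group means (0.100 to 0.303 over 3 pairs). Replicates 2 and 3 correlated as much across numbers (0.103 and 0.115), so only replicate 1 was set apart. Same-numbered values were also positive between WT and KO shControl (0.0609 to 0.205) and between KO shControl and KO shMBD6 (0.00389 to 0.127). Whether the numbers pair the libraries is therefore not settled. Values after ± are SE from the edgeR fit for log2 changes and SD over the 3 libraries of a group for CPM. A few genes are not reported here.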

Additional observations from a re-analysis of the deposited data

Results flagged for a closer look

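The change from shControl to shMBD6, by label, differed between TET2 genotypes in 4 of 11 HOX members tested. This is by the test of the difference itself, where 49.4% of all 26023 genes were called. MBD6 counts fell with shMBD6 in WT (log2 -0.57) and not in KO (0.19), so they show no knockdown in KO. The difference, KO minus WT, was 1.02 for HOXB2, 0.85 for HOXB7, 0.82 for HOXC4 and -3.36 for HOXD3 on the log2 scale. HOXD3 was under the olfactory receptor percentile in all 12 libraries. The values depend on the scaling: the median difference over all genes was -0.19 in the main fit. It was 1.43 with the olfactory receptor count without its top 5% of genes as library size, a shift opposite to the HOXD3 value. HOXC4 lost its call without KO shMBD6 replicate 2 and without WT shControl replicate 3 (values over leave-one-out fits from 0.68 to 0.95).

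The 1 library labelled Pspc1 WT, from mES cells of another experiment and used in no comparison, had 16 Hox members above its own olfactory receptor 95th percentile, where the siControl libraries had 13 to 15. That percentile was 0.00781 per kb there, against 0.0496 to 0.0538 per kb in the siControl libraries. Hoxc12 had 224 counts and Hoxc13 287, while Hoxb3 had 16 counts and Hoxa9 had 3.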

How the results depend on the processing

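Over the alternatives run, member results kept their direction and side of the threshold in 746 of 883 cases, with 29 gaining a call, 73 losing one and 35 changing sign. Low counts limit several members: HOXC11, HOXD10 and the HOXA genes had at most 45 reads in any library. Scaling moved the median log2 change of all genes, from 0.14 to 0.33 (TMM over genes well above background), -0.43 (olfactory receptor counts as library size) or -0.53 (the same without the top 5% of those genes, an alternative chosen after seeing the data) in mES cells. In K562 it moved from -0.05 to -0.85 and 0.20 in KO over WT under shControl, and from 0.10 to -0.31 and -1.05 with shMBD6 in WT, under the 2 olfactory receptor sizes. The cause of the other changes was not tested.

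The mES cell count of 5 called members became 8 with TMM over genes well above background, 2 with the stricter filter, 1 at 2-fold or more and 3 to 7 when 1 library was left out (3 without siControl replicate 1 or siNsun2 replicate 3). Over all genes, 12895 of 27603 were called with that TMM and 12116 of 19606 with the stricter filter. The main fit called 13844 of 27603. In K562, KO over WT under shControl gave 3 at 2-fold and 6 to 7 with 1 library left out, and shMBD6 in WT gave 1 and 3 to 5. For shMBD6 in KO the 4 became 2 with total gene counts, 2 without a filter, 1 at 2-fold and 2 to 4 with 1 library left out (2 without KO shControl replicate 1 or 2). Total gene counts called 10093 of all 26023 genes there, and the fit without a filter 9408 of 42431. KO over WT under shMBD6 gave 5 with the stricter filter, 4 at 2-fold and 6 to 8 with 1 left out, and the interaction 2 at 2-fold and 3 to 5. In KO over WT under shMBD6 the stricter filter called 12288 of all 18508 genes. Members above background numbered 3 in mES cells and 3 in K562 at the 99th percentile, and 2 and 3 at 10 times the pooled olfactory receptor level. They ran from 12 to 13 and from 5 to 7 with 1 library left out, the 7 without KO shMBD6 replicate 3.

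With olfactory receptor counts as library size, signs changed for the mouse HOXB (-0.10) and HOXD (-0.35) sums, the HOXA (-0.67) and HOXB (-0.69) sums in KO over WT under shControl, the HOXA (0.27) and HOXB (0.49) sums for shMBD6 in KO, Hoxc5 (-0.25), Hoxb9 (-0.52), Hoxc4 (-0.22), Hoxa7 (-0.16), Hoxc10 (-0.14), HOXB3 in KO over WT (-0.38), with shMBD6 in KO (0.37) and in the interaction (0.90), and HOXC12 with shMBD6 in WT (-0.30) and in the interaction (0.0335). Without the top 5% of those genes they changed for Hoxc5 (-0.35), Hoxb9 (-0.62), Hoxc4 (-0.32), Hoxa7 (-0.25), Hoxc10 (-0.23), HOXB3 with shMBD6 in KO (0.34) and in the interaction (1.62), and HOXC12 with shMBD6 in WT (-1.01) and in the interaction (0.77). With total gene counts they changed for Hoxc11 (0.0638), HOXB3 in the interaction (0.0126) and the HOXA (-0.0603) and HOXB (-0.0722) sums in KO over WT and HOXB with shMBD6 in KO (0.10). TMM over genes well above background turned Hoxc11 (0.0797) and HOXB3 with shMBD6 in WT (0.0958), and DESeq2 turned Hoxb9 (-0.008 with its size factors and -0.0078 with its test).

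Leaving out 1 library gave -0.12 to 0.17 for Hoxb9, -0.35 to 0.14 for Hoxc11, -0.24 to 0.64 for HOXC12 with shMBD6 in WT, -3.81 to 2.02 for HOXD10 with shMBD6 in KO and -0.0479 to 0.0092 for HOXB3 in the interaction. The cluster sums ran from -0.34 to 0.39 for HOXA in KO over WT under shControl, from -1.78 to 0.22 for HOXA with shMBD6 in KO and from -0.0468 to 0.001 for HOXB with shMBD6 in KO.

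With the replicate number as a block, the numbers of called members were 5 in mES cells and 7, 4, 3, 8 and 4 in the 5 K562 comparisons in the order given above. Over all genes the block fit called 13698 of 27603 in mES cells. In K562 it called 11875, 11146, 9579, 15340 and 12873 of 26023 in the same order. HOXC4 with shMBD6 in KO was the call lost (adjusted p = 0.0546, edgeR).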
